A study of Mus musculus with 4 samples.

Results

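The Gpr17-high cells of the hypothalamus at postnatal day 7 (P7) were 1062 of the 8917 cells of that age, 11.9% (95% counting interval 11.24% to 12.6%), and of 43261 cells in the whole series. They were chosen by their counts of unique molecular identifiers (UMIs, each standing for 1 captured RNA molecule). A cell had to hold at least 5 UMIs of Gpr17, at least 1 of Sox10, none of the proliferation genes Mki67 and Top2a, and at most 2 summed over the late myelin genes Mog, Mag and Mobp. Of 1632 P7 cells with 5 or more Gpr17 UMIs, 26 were left out for having no Sox10, 499 for Mki67 or Top2a, and 45 for the myelin genes. The cells that remained were 27.8% of the 3820 P7 cells with a Sox10 UMI. The levels of these 7 genes follow from the choice and are a description only.

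The cells came from Rax-CreERT2::Ai14 mice of strain C57BL/6J, in which a tamoxifen-dependent Cre recombinase made under the Rax driver switches on the red fluorescent protein tdTomato. A single dose of tamoxifen was given at embryonic day 9 (E9) by the design text, or at E9.5 by the protocol, so the marked cells descend from neuroepithelium that used Rax, and cells of other origin were outside the sort. Hypothalami were dissected at E11, E14, P0 and P7. The age label of the P7 sample reads 7.5, and the age labels of the E11 and E14 samples are also later than these names. Viable cells with tdTomato fluorescence were isolated by sorting and captured in 10x Genomics 3-prime version 3 libraries. Genotype and treatment were the same at every age, each age was 1 sample, and the number of animals behind a sample is not given in the labels.

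With 1 sample per age there were no replicates and no test between groups. Levels are in CPM, the UMIs of a gene summed over the cells of a group for each 1000000 UMIs of that group. Each ratio of 2 levels has an exact 95% interval for a ratio of counts. These intervals cover counting error within these cells and nothing of the variation between animals. A gene is called higher or lower where the levels differ at least 2-fold after 5 CPM are added to both, among genes with a mean of at least 5 CPM over the compared groups.

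Oligodendrocytes, the cells that make myelin, arise from dividing precursors that carry the growth factor receptor Pdgfra and the proteoglycan Cspg4. On commitment a precursor leaves the cell cycle, loses Pdgfra, and passes through a short premyelinating stage marked by Bcas1, by the choline-lipid phosphodiesterase Enpp6 and by the secreted signal Bmp4, before the genes of the myelin sheath are made in bulk. Gpr17 is a G protein-coupled receptor of this lineage, made strongly and transiently at that passage, and its activity holds back the final steps of maturation.

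The Gpr17-high cells held 10801789 UMIs, with 3258 to 41594 per cell and a median of 9309. For comparison there were 4 sets of P7 cells: 114 resting precursors (Sox10 present, at least 2 Pdgfra UMIs, no Gpr17, none of the proliferation genes, a myelin sum of at most 2), 1097 cells with 1 to 4 Gpr17 UMIs that met the rest of the rule, 26 myelin gene-rich cells (10 or more UMIs of Mog, Mag and Mobp), and 491 dividing cells that met the rule apart from Mki67 or Top2a. Median depths in these were 6465, 7472, 19201 and 11369 UMIs. A doublet caller marked 49 of the Gpr17-high cells, 4.61%, against 2.53% of all P7 cells. Cell barcodes seen in more than 1 run numbered 146 of 43114, and 9 of the Gpr17-high cells carried one.

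The data went against the name of committed precursors for most of these cells. Pdgfra, which a committed cell should have lost, had a UMI in 942 of the 1062, 88.7% (86.6% to 90.5%). Enpp6 had one in 108, 10.2% (8.42% to 12.1%). Bcas1 had a UMI in 816 cells, 76.8% (74.2% to 79.3%), but at a median of only 2 UMIs per cell. After every cell was thinned at random to 2000 UMIs, which makes shares comparable across depths, Pdgfra remained detected in 76.1% (73.4% to 78.6%), Bcas1 in 39.5% and Enpp6 in 6.03% (4.67% to 7.63%). In 603 P7 neurons (at least 10 UMIs each of the neuronal genes Snap25 and Stmn2) with a median of 31312 UMIs, which should lack all 3 genes, the thinned shares were 3.15% for Pdgfra, 0.829% for Bcas1 and 0% for Enpp6 (interval up to 0.61%). The set is therefore called Gpr17-high here, and its cells are described by whether they held Pdgfra and Enpp6, which the choice of cells did not use.

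Enpp6 lies on chromosome 8 from 46986887 to 47096762, Bcas1 on chromosome 2 from 170346991 to 170427845, Pdgfra on chromosome 5 from 75152292 to 75198215 and Sox10 on chromosome 15 from 79154908 to 79165240, in the GENCODE M21 annotation of the mouse build GRCm38 (mm10). Reads from 3-prime libraries fall near the end of each transcript, so no value here tells the forms of these genes apart.

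By all their UMIs, 910 cells had Pdgfra and no Enpp6, 32 had both, 76 had Enpp6 and no Pdgfra, and 44 had neither. Gpr17 itself followed this split. The 910 cells had a median of 7 Gpr17 UMIs, from 5 to 70. The 32 cells with both had a median of 25.5, from 5 to 72, and the 76 cells with Enpp6 alone a median of 34.5, from 8 to 84. The 44 cells with neither lay between, with a median of 19 and a range of 6 to 54. Median depth was 9117 UMIs in the cells with Pdgfra alone, 14059 in those with both, 11936 in those with Enpp6 alone and 8270 in those with neither, so depth moved with the split, and its part in the shares of detected cells was not tested beyond the thinning above. As CPM, Gpr17 stood at 858, 1996, 2822 and 2749 in the same order. Low Gpr17 counts belonged almost wholly to cells with Pdgfra: at 5 UMIs 239 of 240 cells had Pdgfra alone, while at 40 to 49 UMIs 14 of 19 had Enpp6 alone.

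**Figure D1:**
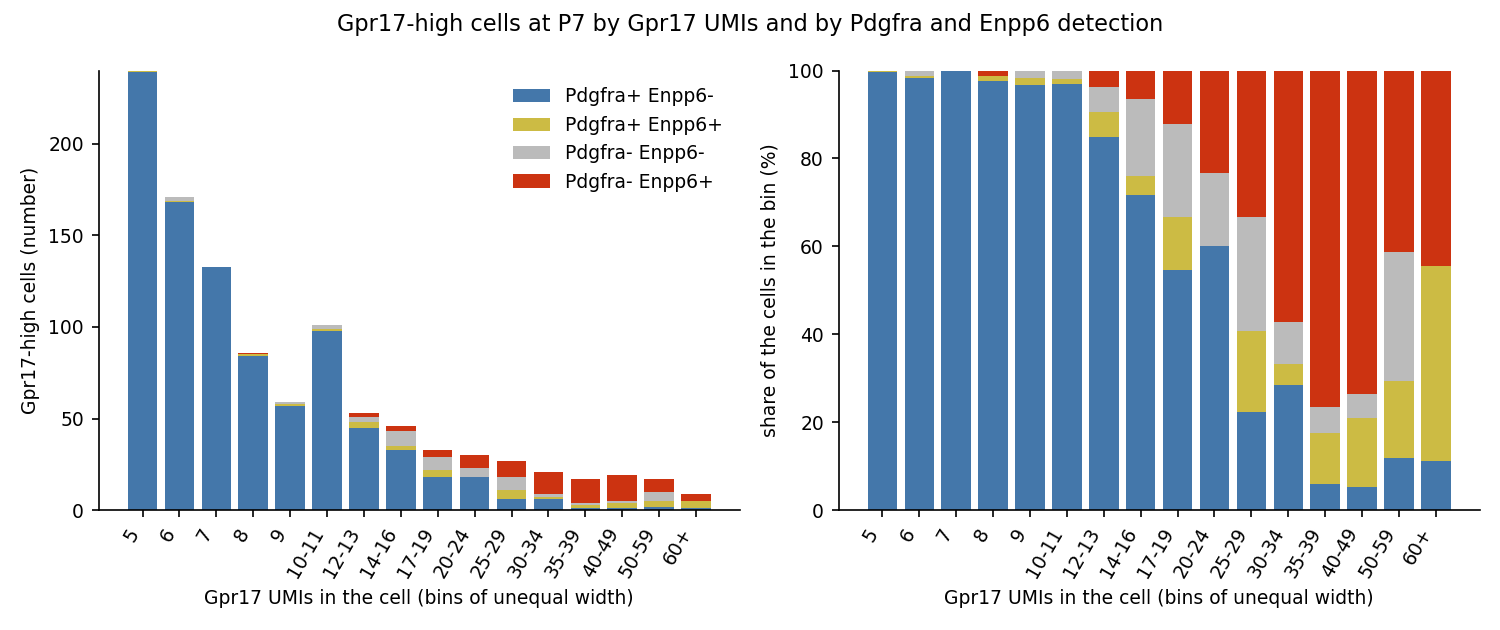
Left, number of Gpr17-high P7 cells in bins of Gpr17 UMIs per cell, stacked by detection of Pdgfra and Enpp6. Right, the same cells as shares (%) of each bin: cells with Pdgfra alone make up 239 of the 240 cells at 5 UMIs and 1 of the 19 cells at 40 to 49 UMIs.

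The threshold of 5 UMIs ran through cells that were alike in other genes. The 222 cells with 4 Gpr17 UMIs, just outside, had Pdgfra at 1255 CPM, Bcas1 at 163 CPM and Enpp6 in 1 cell. The 240 cells with 5, just inside, had Pdgfra at 1272 CPM, Bcas1 at 142 CPM and Enpp6 in 1 cell. At the other edge, the 3 cells with a myelin sum of 2 all had Enpp6, as did the 5 cells with a sum of 3 that were left out.

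The genes of the committed stage separated the subsets within the Gpr17-high cells. Between the cells with Enpp6 alone and those with Pdgfra alone, 352 of 11449 tested genes were higher (3.07%) and 1027 were lower (8.97%). The split used Pdgfra and Enpp6 only. Genes that go with either of these across cells follow the split in part, so the list counts below are a description. Of 15 committed-stage genes that could be tested, 12 were higher and none lower, with a median log2 difference of 2.02 against -0.08 over all tested genes. Bmp4, a secreted ligand that inhibits oligodendrocyte maturation, stood at 5.23 CPM in the Pdgfra cells, 305 in those with both, 164 in those with neither and 577 in the Enpp6 cells. This was a 110-fold difference between the outer groups (95% counting interval 81.8 to 152). Bmp4 had a UMI in 68 of the 76 Enpp6 cells and in 4 of the 603 deeper neurons. Without called doublets 345 genes were higher and 965 lower, and 333 and 924 of these were called with all cells as well. Among cells of 5000 to 15000 UMIs the counts were 449 and 835, with 313 and 709 shared.

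Bcas1, a protein of early myelinating processes, was 13.8-fold higher in the Enpp6 cells (13.1 to 14.6), at 221, 1587, 1235 and 3055 CPM in the order just given. The median Bcas1 count was 1 UMI in the Pdgfra cells, where 243 of 910 had none, and 29.5 in the Enpp6 cells, where none was without it. Sirt2, a tubulin deacetylase of the lineage, was 12.3-fold higher (11.6 to 12.9), Neu4, a sialidase, 8.61-fold (7.14 to 10.4), and Fyn, the kinase that couples axon contact to process outgrowth, 5.74-fold (5.44 to 6.05). The long noncoding RNA 9630013A20Rik stood at 7.01 CPM in the Pdgfra cells and 166 in the Enpp6 cells and was among the genes called higher. Itpr2, a calcium channel of internal stores, and Nfasc, an adhesion molecule of the axon-glia contact, were 3.04-fold and 3.71-fold higher. Lims2 was 5.07-fold higher, but the Gpr17 gene lies within the span of Lims2 on the opposite strand of chromosome 18, and whether strand was used in the counting is not given in the sources used here, so the Lims2 reads could belong to Gpr17. Vcan, Tmem163 and Rras2 differed by less than 2-fold, with ratios of 1.22, 1.31 and 1.15.

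The 32 cells with both genes lay between the outer groups in most of these. Fyn stood at 406, 1534 and 2327 CPM in cells with Pdgfra alone, both, and Enpp6 alone, Sirt2 at 258, 1726 and 3157, and Neu4 at 26.8, 191 and 231. In thinned cells Bmp4 was detected in 1.1%, 40.6% and 55.3% of the same groups. Called doublets were 4 of these 32 cells, 12.5%, and 4 of the 44 cells with neither gene, 9.09%, against 40 of the 910 with Pdgfra alone, 4.4%, and 1 of the 76 with Enpp6 alone, 1.32%. A pair of unlike cells in 1 droplet would also hold both genes, and its part in these levels was not tested.

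**Figure D2:**
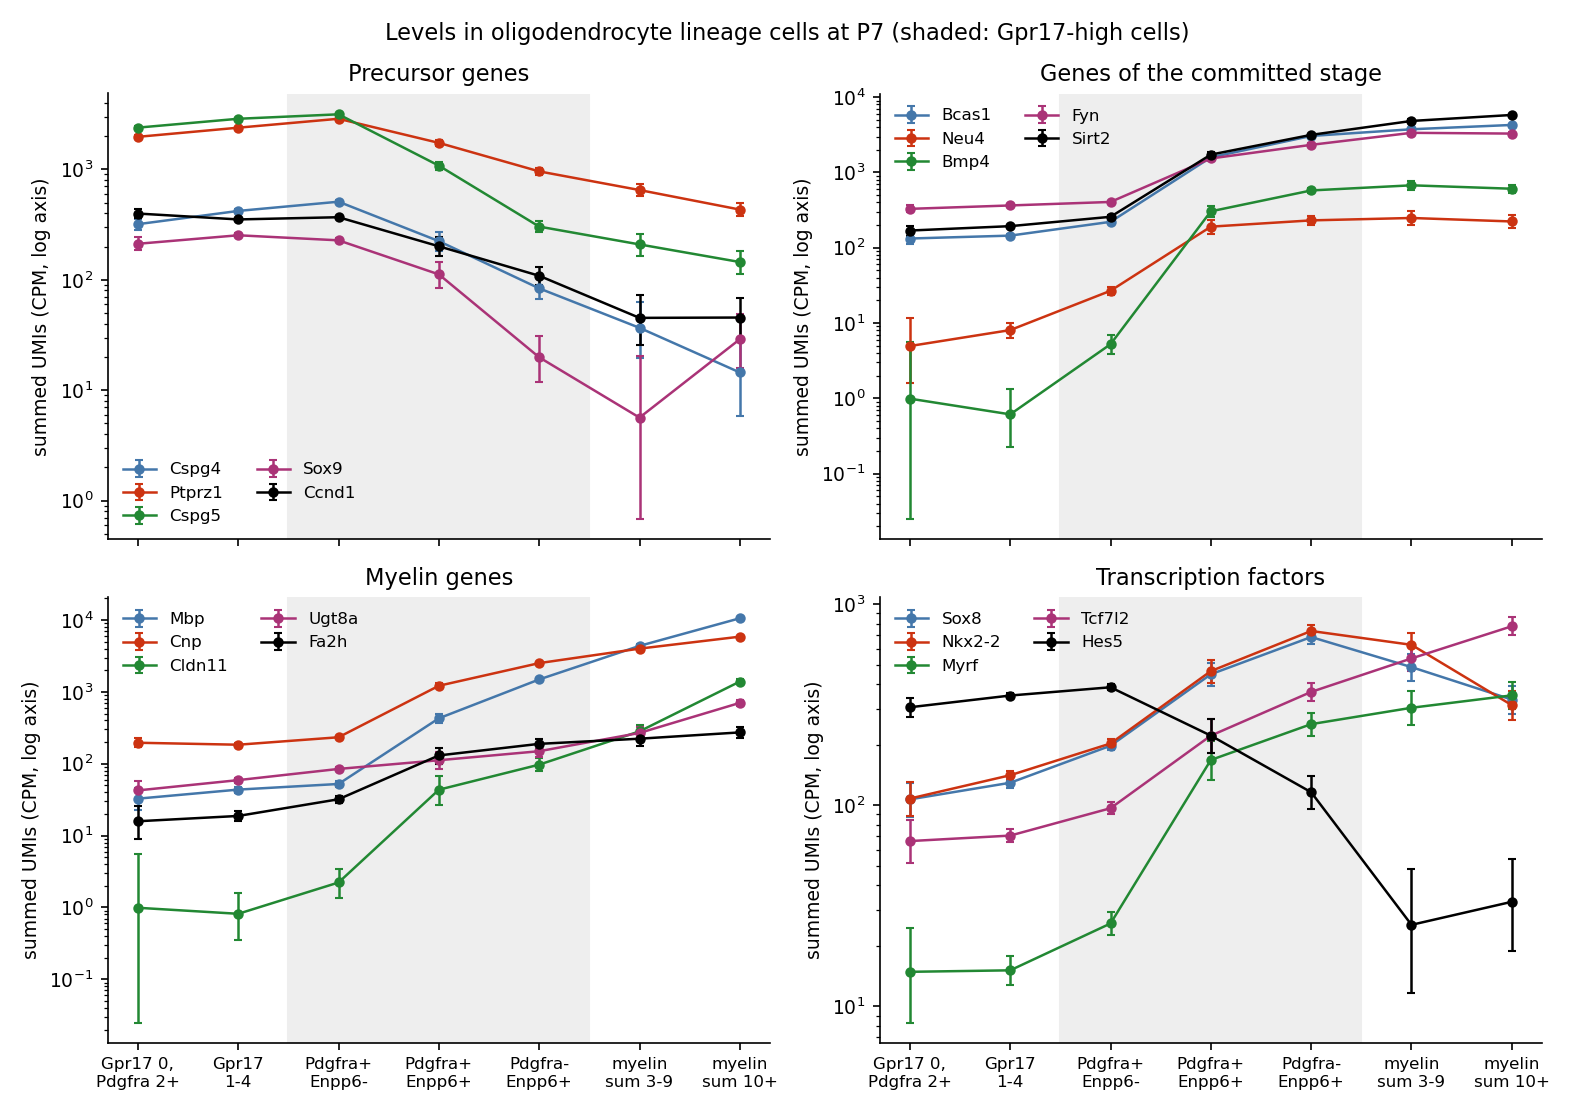
Levels (CPM, log axis) of 20 genes in 7 steps of P7 cells, from resting precursors through the subsets of Gpr17-high cells (shaded) to myelin gene-rich cells, with exact 95% Poisson intervals. On the log axis, the step from Pdgfra alone to both genes carries most of the difference between the outer shaded groups for Bmp4, Bcas1 and Myrf. Ugt8a and Cldn11 are highest at the last step.

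Precursor genes took the opposite course for the most part. Of 19 tested, 11 were lower in the Enpp6 cells and 1 was higher. Cspg4, the NG2 proteoglycan, stood at 509 CPM in the Pdgfra cells, 224 in those with both and 83.6 in the Enpp6 cells, which was 6.09-fold lower (4.88 to 7.7) between the outer groups. Cspg5, another proteoglycan of the precursor surface, was 10.4-fold lower (9.26 to 11.7), and Sox9, a transcription factor of glial progenitors, 11.46-fold lower (7.32 to 19.1), at 228 and 19.9 CPM. Rlbp1, a retinal-binding protein of early glia, was 17.8-fold lower (10.2 to 34.5). Ptprz1, a receptor phosphatase, was 2.996-fold lower (2.8 to 3.2) and still at 958 CPM in the Enpp6 cells.

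Several precursor genes differed less than 2-fold. C1ql1, a secreted synaptic organiser, stood at 1017 and 801 CPM, and the matrix protein Matn4 at 391 and 393, a ratio of 1.004 (0.9 to 1.12). The lineage factors Olig1, Olig2, Sox5 and Sox6 had ratios of 0.73 to 1.4 between the Enpp6 and the Pdgfra cells. Tnr, a matrix glycoprotein on the precursor list, was 4-fold higher in the Enpp6 cells (3.66 to 4.36), at 757 against 189 CPM.

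Among transcription factors, 8 of 32 tested were higher and 12 lower in the Enpp6 cells. Myrf, the factor that switches on myelin genes, was 9.80-fold higher (8.15 to 11.8), at 25.8 CPM in the Pdgfra cells, 168 in those with both, 162 in those with neither and 253 in the Enpp6 cells. Nkx2-2, Sox8 and Zeb2, which drive oligodendrocyte differentiation, were 3.63-fold (3.32 to 3.96), 3.47-fold (3.17 to 3.8) and 3.88-fold higher (3.53 to 4.27). Tcf7l2, a Wnt pathway factor that peaks in premyelinating cells, was 3.79-fold higher (3.34 to 4.29). Nkx6-2, St18 and Nfe2l3 were also higher, but none of these exceeded 17.8 CPM in either group.

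The factors that were lower included some that keep precursors undifferentiated. Hes5, a Notch target that represses myelin genes, stood at 386 CPM in the Pdgfra cells and 116 in the Enpp6 cells, 3.33-fold lower (2.75 to 4.05), and Hes1 was 3.25-fold lower (2.32 to 4.69). Id2 and Id4, inhibitors of the Olig factors, were 5.12-fold (3.42 to 8.02) and 2.33-fold lower (1.44 to 4.04). Id1 and Id3 were not called. Nfia, Nfib, Sox11, Etv1, Etv5, Egr1 and Prrx1 were lower too.

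Genes of the myelin sheath were higher in the Enpp6 cells although the rule kept out cells with more than 2 UMIs of Mog, Mag and Mobp. Of 14 tested myelin genes that the rule did not use, 9 were higher and 1 lower. Mbp, which compacts the sheath, stood at 52.3 CPM in the Pdgfra cells, 429 in those with both, 172 in those with neither and 1490 in the Enpp6 cells, a difference of 28.5-fold (25.7 to 31.7). Cnp, an enzyme of the myelin cytoplasm, was 10.8-fold higher (10.1 to 11.4), and Cldn11, the tight junction protein of myelin, 43.7-fold higher (26.7 to 74.8) at 97.2 CPM.

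The cells with Enpp6 alone did not share Mbp evenly. Its median was 8 UMIs per cell, the highest cell had 124, and 5 of the 76 had none, so the low cells overlapped with the Pdgfra cells, whose highest count was 10. Ugt8a, the enzyme of galactolipid synthesis, differed by 1.77-fold only (1.47 to 2.11), and the lipid-modifying Fa2h by 5.9-fold (4.87 to 7.13). Gjb1, a gap junction protein of mature oligodendrocytes, ran the other way at 55.8 CPM in the Pdgfra cells and 7.32 in the Enpp6 cells, 7.62-fold lower (3.67 to 19.1). Among 25 genes of cholesterol synthesis, a pathway that myelin draws on heavily, none was called in either direction, and their median log2 difference was -0.30.

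Single genes of the signalling lists were called, beside 3.07% higher and 8.97% lower over all genes. In the BMP list of 20 tested genes, Bmp4 was the gene called higher, while Bmp7, a related ligand, was 8.73-fold lower in the Enpp6 cells (5.27 to 15.6), at 137 and 15.7 CPM, and the antagonist Nog, also called lower, stood at 36.1 and 3.14 CPM, the latter on 3 UMIs. In the Wnt list of 16, where the count is near that over all genes, Tcf7l2 was higher and the receptor Fzd9 lower, and the feedback genes Axin2 and Nkd1 were not called, at 9.57 and 37.1 CPM in the Pdgfra cells and 5.23 and 26.1 in the Enpp6 cells. In the Notch list of 15, the receptor Notch1 was 2.34-fold lower (1.8 to 3.1) and the axon-glia ligand Cntn1 2.52-fold lower (2.27 to 2.8), next to Hes1 and Hes5 above. The ligands Dll1 and Dll3 had ratios of 1.09 and 0.945.

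Of 27 growth factor genes tested, 12 were lower in the Enpp6 cells. These were the receptors Fgfr1, Fgfr3, Ntrk2, Ntrk3, Erbb3 and Kit, and the feedback genes and targets of the MAP kinase pathway Spry1, Spry2, Spry4, Dusp6, Etv4 and Etv5. Fgfr1 stood at 83.9 and 16.7 CPM, 5.02-fold lower (3.07 to 8.83). Spry1, an inhibitor of receptor signalling, was 6.01-fold lower (4.55 to 8.12), at 314, 89.1 and 52.3 CPM in cells with Pdgfra alone, both, and Enpp6 alone. Etv4 was 33.9-fold lower (11.6 to 165) on 3 UMIs in the Enpp6 cells. Mapk3, the kinase ERK1, was 2.65-fold higher (2.09 to 3.34), at 37.1 against 98.2 CPM.

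Of 31 tested neurotransmitter receptors and ion channels, through which precursors sense neuronal activity, 14 were lower in the Enpp6 cells, Itpr2 was higher and 16 were not called. Kcnd2, a potassium channel subunit, was 5.84-fold lower (4.44 to 7.84), at 317 and 54.3 CPM, and Grm5, a metabotropic glutamate receptor, 4.96-fold lower (3.31 to 7.77). Gria1, an AMPA receptor subunit, was 3.4-fold lower (2.23 to 5.47), and Gria3 stood at 192 and 103 CPM and was not called. From the list of G protein-coupled and purinergic receptors, Adora1, an adenosine receptor, was 17.9-fold lower (8.66 to 44.6), at 131 and 7.32 CPM.

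Cytoskeletal genes moved in both directions, with 9 of 31 tested higher and 6 lower. Tubb4a, the tubulin of oligodendrocytes, was 6.23-fold higher in the Enpp6 cells (5.76 to 6.75), at 175 and 1088 CPM, and Tmsb4x, an actin-binding peptide, 2.88-fold higher (2.8 to 2.96). Map1b and the dynein light chain Dynll2 were 2.39-fold (2.22 to 2.58) and 2.56-fold higher (2.34 to 2.81). The 6 lower genes were the stathmins Stmn1 to Stmn4, Gap43 and Basp1, all abundant in neurons. Plxnb3, a semaphorin receptor of the surface list, was 6.78-fold higher (5.48 to 8.37).

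Of 20 genes of survival and cell death, 2 were higher and 1 lower, beside 3.07% and 8.97% of all genes, and nothing is read from that count. Tfeb, a regulator of lysosomal genes that promotes the death of surplus premyelinating cells, was 11.7-fold higher in the Enpp6 cells (8.14 to 17), at 6.23 CPM in the Pdgfra cells, 29 in those with both and 73.2 in the Enpp6 cells. Flcn, which holds Tfeb protein outside the nucleus, was 2.38-fold higher (1.65 to 3.35), and the survival gene Bcl2 5.23-fold lower (3.04 to 9.88). Bbc3, which codes for the death protein PUMA downstream of Tfeb, stood at 13.2 and 24 CPM, a ratio of 1.82 (1.11 to 2.85), and was not called. The Tfeb difference rested on 56 and 70 UMIs.

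Cell cycle genes outside the rule were lower in 6 of 22 cases and higher in 1. Ccnd1 and Ccnd2, the D-type cyclins, were 3.39-fold (2.79 to 4.16) and 3.3-fold lower (2.43 to 4.6) in the Enpp6 cells, as were Cdk6, Mcm3, Mcm5 and Mcm6. Cdkn1c, the cell cycle inhibitor p57, was 6.90-fold higher (6.3 to 7.54), at 127 CPM in the Pdgfra cells, 586 in those with both, 878 in those with neither and 878 in the Enpp6 cells. Cdkn1a and Cdkn1b, which code for p21 and p27, were not called.

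**Figure D3:**
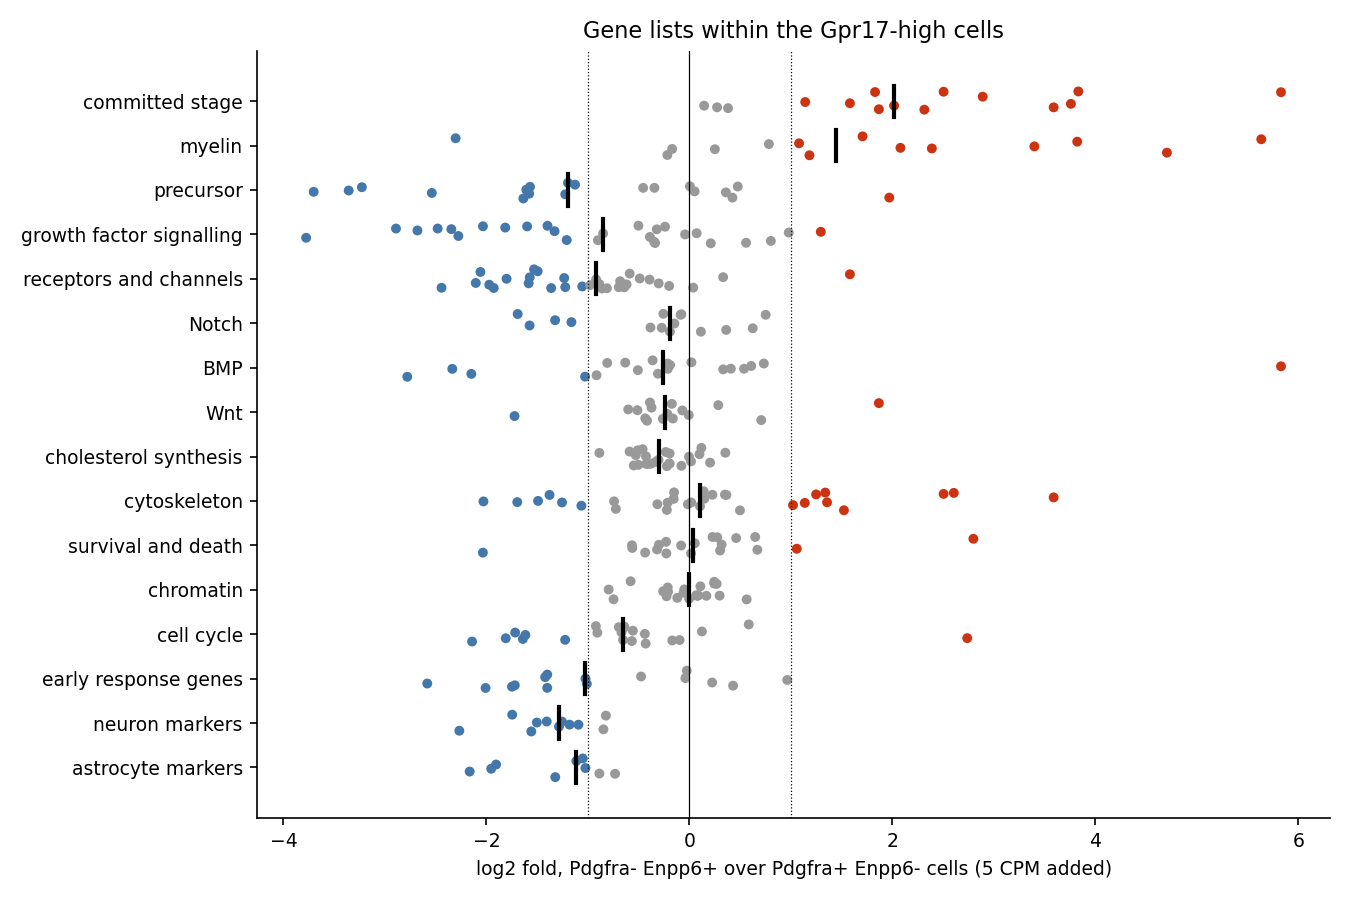
Each point is a tested gene of a list, placed by its log2 fold in Enpp6 cells over Pdgfra cells among the Gpr17-high cells (5 CPM added). Red points are called higher, blue lower, vertical bars mark list medians and dotted lines 2-fold. The medians of the committed-stage and precursor lists are 2.02 and -1.20.

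Markers of other cell types moved with this split. Summed over 11 neuron markers, all with UMIs, the level was 1252 CPM in the Pdgfra cells, 1013 in those with both and 448 in the Enpp6 cells, against 10870 in P7 neurons. In cells with neither it was 517 CPM, with Slc32a1, Slc17a6 and Gad2 at 0. Over 9 astrocyte markers, all with UMIs, it was 830, 924 and 228 CPM in the first 3 of these groups and 612 in the cells with neither. Over 7 ependymal markers, all with UMIs in each group, it was 78.7, 47.7 and 92 CPM in the first 3 groups and 456 in the cells with neither, led there by Dynlrb2 at 117 CPM. The part of these markers in the levels of the cells with neither was not tested. When cells with 10 or more UMIs of 4 neuron genes were left out, 347 genes were called higher and 955 lower, of which 327 and 894 were also called with all cells. Tanycyte markers summed to 155 and 55.4 CPM in the Pdgfra and the Enpp6 cells, and Rax, Frzb, Dio2, Adm and Scn7a were at 0 in the latter. Markers of microglia, endothelium, mural cells, fibroblasts and blood summed to 34.2 CPM or less in both groups. The early response genes, which rise on dissociation, were lower in the Enpp6 cells for 9 of 15, with Fos at 617 and 184 CPM, and their part in the other differences was not tested.

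Genes of hypothalamic regional identity were lower as well, for 6 of the 8 tested. Six3, a forebrain patterning factor, stood at 116 CPM in the Pdgfra cells and 52.3 in the Enpp6 cells, 2.21-fold lower (1.67 to 3), and Nkx2-1, of the ventral hypothalamus, was 2.95-fold lower (1.53 to 6.52). Both are made in neurons too, where they stood at 258 and 133 CPM. The lineage reporter tdTomato was level, at 1016 and 1018 CPM, a ratio of 1.002 (0.937 to 1.07).

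Set against all other 7855 P7 cells, of every type, the Gpr17-high cells had 496 of 12247 tested genes higher (4.05%) and 1115 lower (9.1%). Among those higher were 11 of 16 committed-stage genes and 16 of 20 precursor genes. Lims2, whose reads could belong to Gpr17, was 1 of the 11. Of the precursor genes, 1 of 19 was higher against resting precursors, 1 of 20 against the cells with 1 to 4 Gpr17 UMIs and none of 20 against the dividing cells. C1ql1 stood at 987 CPM against 163, 6.07-fold higher (5.92 to 6.22), and the myelin protein gene Pllp at 267 CPM against 42.6, 6.27-fold higher (5.98 to 6.56). Of 14 myelin genes, 7 were higher and Ptgds was lower. Lower along with these were 9 of 11 neuron markers (summed 1145 and 5449 CPM) and 6 of 9 astrocyte markers (773 and 1960 CPM). So were 7 of 7 ependymal markers (91.7 and 727 CPM) and 3 of 6 tanycyte markers (143 and 196 CPM). All 3 blood markers tested, the fibroblast marker Col1a2 and 5 of 16 early response genes were lower too. The Schwann cell marker Pmp22 was higher. The part of all these genes in the result was not tested.

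Against the 114 resting precursors, which differ from the Gpr17-high cells by rule in Gpr17 and in the Pdgfra they had to hold, 122 of 11774 tested genes were higher (1.04%) and 201 lower (1.71%). Committed-stage genes were higher for 8 of 16 tested and lower for none. Lims2, whose reads could belong to Gpr17, was 1 of the 8. Another was Bcas1, at 568 and 133 CPM, a difference of 4.29-fold (3.61 to 5.12). Enpp6 stood at 68.6 CPM against no UMI, at least 23.1-fold higher if 3 UMIs are allowed in the resting cells. S100a13, a calcium-binding protein, was 5.15-fold higher (4.42 to 6.03), at 851 and 165 CPM. Of 19 precursor genes, Tnr was the gene called, and Cspg4 stood at 1.4 times the resting level (1.25 to 1.57), but was marginally below it when only cells with 10 or more Gpr17 UMIs were taken.

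The cells with Pdgfra alone differed from the resting precursors in fewer genes. These 910 cells had 69 genes higher (0.586%) and 172 lower (1.46%) than the resting precursors. Of 13 committed-stage genes 3 were higher, namely Neu4, Itpr2 and Lims2. The Lims2 reads could belong to Gpr17, in which these groups differ by rule. None of 12 myelin genes was called. Of 11 neuron markers 6 were lower (summed 1252 and 2875 CPM), the astrocyte marker Gfap was higher, and the early response genes Btg2 and Zfp36 were lower. Their part in the result was not tested. Bcas1 stood at 221 and 133 CPM, a ratio of 1.67 (1.4 to 2), and Sox8 and Nkx2-2 at 1.85 (1.52 to 2.27) and 1.88 times (1.55 to 2.3) the resting level. S100a13 was 4.01-fold higher (3.44 to 4.71), the lipid transporter Mfsd2a 2.04-fold (1.8 to 2.33) and Neu4 5.42-fold (2.29 to 16.8), so these 3 genes were higher along with Gpr17 in cells that held Pdgfra. Epcam was 1 gene whose direction turned: it stood at 35.6 CPM over all Gpr17-high cells, 4.95 in resting precursors and 2.23 in the cells with Pdgfra alone.

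The genes lowest against the resting precursors were mostly neuronal, led by the neuropeptide genes Npy and Agrp, of which Agrp shares exon sequence with another gene on its strand. Tac2 and Sst were among the lowest too, but turned to the other side of equality among cells of 5000 to 15000 UMIs for Tac2 and against the cells with 1 to 4 Gpr17 UMIs for Sst. Npy was 15.6-fold lower (14.16 to 17.2), at 65.8 and 1026 CPM, but had a UMI in 10.6% of the thinned Gpr17-high cells and 8.77% of the resting precursors, against 20.2% of the neurons. The neuron markers summed to 2875 CPM in the resting precursors and 1145 in the Gpr17-high cells, and 6 of 11 were called lower. Their part in the other differences from the resting precursors was not tested. Of all called genes 37.8% were higher, and the share was 54.3% when the CPM of single cells were averaged and 56.2% when cells were thinned. Against the 1097 cells with 1 to 4 Gpr17 UMIs, whose neuron markers summed to 2287 CPM, 36 of 11739 genes were higher (0.307%) and 25 lower (0.213%). Bcas1, Enpp6, Neu4, Bmp4, Sirt2, Lims2 and 9630013A20Rik were higher there too. The Lims2 reads could belong to Gpr17, in which these groups differ by rule as well.

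At the other end of the lineage stood the 26 myelin gene-rich cells, 25 of which also had 5 or more Gpr17 UMIs. All Gpr17-high cells together had 2197 of 11191 tested genes higher than these (19.6%) and 612 lower (5.47%), with a median log2 difference over all genes of 0.25. Committed-stage genes were lower for 16 of 17 and higher for none, and myelin genes lower for 12 of 15 and higher for 1, Gjb1. The groups differ by rule in Mog, Mag and Mobp, so lower levels of genes that go with these follow in part from the choice. Higher along with these were 9 of 11 neuron markers, 7 of 9 astrocyte markers and 10 of 15 early response genes. The neuron markers summed to 1145 CPM against 238, with Slc32a1 at 0 in the myelin gene-rich cells, and the astrocyte markers to 773 against 170. Their part in the result was not tested. The 76 cells with Enpp6 alone had 1151 of 10633 genes higher (10.8%) and 407 lower (3.83%). Mbp stood at 1490 CPM in the Enpp6 cells and 10582 in the myelin gene-rich cells, 7.1-fold lower (6.69 to 7.53). Cldn11, Ugt8a and Nfasc were 14.3-fold (11.52 to 18), 4.71-fold (3.86 to 5.76) and 7.81-fold lower (6.86 to 8.92). Enpp6 itself stood at 605 CPM against 1589, where the split had required it.

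Of 17 committed-stage genes, 9 were lower in the Enpp6 cells than in the myelin gene-rich cells and none higher, with a median log2 difference of -1.07. Enpp6, which the split required, was 1 of the 9. Among those not called, Bmp4 stood at 577 and 608 CPM, a ratio of 0.949 (0.822 to 1.1), and Neu4 at 231 and 223, a ratio of 1.03 (0.818 to 1.31). Bcas1, also not called, was 1.4-fold lower (1.32 to 1.48), and so was Myrf of the transcription factors, 1.39-fold (1.14 to 1.7). Gpr17 was 2.28-fold higher in the Enpp6 cells (2.08 to 2.49), at 2822 and 1239 CPM, which is a description only. The rule required at least 5 Gpr17 UMIs of these cells and set no limit for the myelin gene-rich cells. Nkx2-2 and Sox8 were 2.34-fold (1.96 to 2.8) and 2.05-fold (1.72 to 2.44) higher in the Enpp6 cells. Of 20 precursor genes 11 were higher in the Enpp6 cells, with C1ql1 2.81-fold (2.34 to 3.39) and Cspg4 5.77-fold higher (2.68 to 14.8). The 1 called lower was Pdgfra, which the split had kept at 0. Notch genes were higher for 7 of 14, among them the ligand Dll3, 10.1-fold (4.19 to 31.8), and Hes5, 3.51-fold (2.07 to 6.35). Channels and receptors were higher for 15 of 27. Along with these, 3 of 9 neuron markers and 3 of 6 ependymal markers were higher, and of 16 early response genes 6 were higher and 2 lower. The neuron markers summed to 448 and 238 CPM, with Slc32a1 at 0 in the myelin gene-rich cells, and the ependymal markers to 92 and 26.9 CPM, with Tmem212 and 1110017D15Rik at 0 there. Their part in these differences was not tested. The myelin gene-rich cells were the deeper ones, with a median of 19201 UMIs against 11936.

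Dividing cells were counted outside the rule, since the rule admits none. Among P7 cells with Sox10 and at most 2 UMIs of the late myelin genes, Mki67 or Top2a had a UMI in 25.2% of cells without Gpr17 (n = 648), 29.7% at 1 to 4 UMIs (n = 1560), 32.3% at 5 to 9 (n = 1017), 37.9% at 10 to 19 (n = 375) and 13% at 20 or more (n = 161). Thinned to 2000 UMIs, the shares were 13.3%, 16.8%, 16.9%, 24% (19.8% to 28.7%) and 6.21% (3.02% to 11.13%). The share was thus highest at 10 to 19 Gpr17 UMIs and lowest at 20 or more, and the intervals of these 2 bins did not overlap at either depth. Neurons, which do not divide, had 12.1% before thinning and 1.16% after it. With any of 6 proliferation genes in place of these, the bins of 10 to 19 and of 20 or more held 46.7% and 26.1%.

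The same bins showed where Pdgfra gave way to Enpp6. Thinned, Pdgfra was detected in 22.1% of cells without Gpr17 and 83.1% at 1 to 4 Gpr17 UMIs. Its share was 88.7% at 5 to 9, 77.1% at 10 to 19 and 23.6% at 20 or more. That of Enpp6 was 0%, 0.0641%, 0.0983%, 2.93% and 34.8% in the same order. The cells without Gpr17 had a median depth of 14314 UMIs, against 7932 at 1 to 4. By the split, all Gpr17-high cells with the dividing ones put back had Mki67 or Top2a in 474 of 1384 with Pdgfra alone, 34.2% (31.7% to 36.8%), 7 of 39 with both, 17.9% (7.54% to 33.5%), 8 of 84 with Enpp6 alone, 9.52% (4.2% to 17.9%), and 2 of 46 with neither, 4.35% (0.531% to 14.8%). Thinned shares were 19.3%, 7.69%, 2.38% and 0%. After thinning, the interval for the Enpp6 cells (0.29% to 8.34%) included the share of the neurons, 1.16%, so division above that background was not detectable in these 84 cells. The unthinned shares cannot be set against the neurons, which were deeper.

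**Figure D4:**
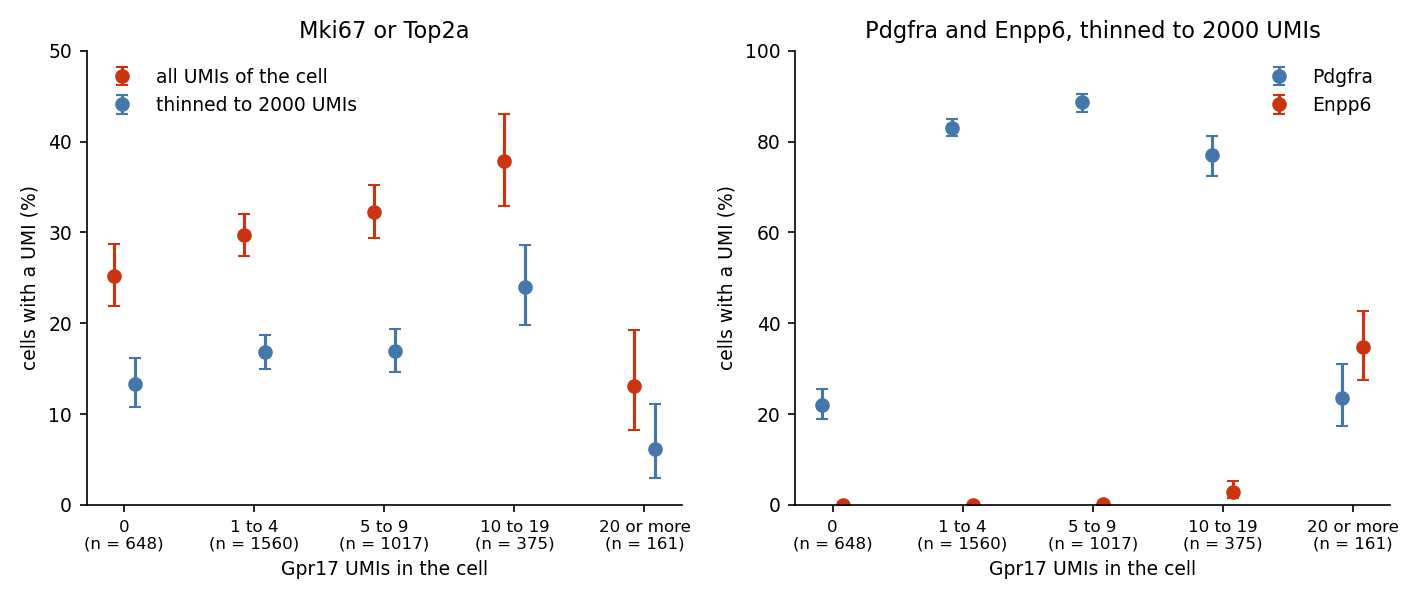
Shares of P7 cells with Sox10 (%) by their Gpr17 UMIs, with exact 95% intervals. Left, cells in which Mki67 or Top2a was detected, before and after thinning, peaking at 10 to 19 Gpr17 UMIs (37.9% and 24%). Right, thinned cells with Pdgfra, at 22.1% without Gpr17, 88.7% at 5 to 9 UMIs and 23.6% in the last bin. Thinned cells with Enpp6 reach 34.8% in the last bin.

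Set beside their 491 dividing counterparts, the Gpr17-high cells had 26 of 11893 genes higher (0.219%) and 384 lower (3.23%). Cell cycle genes were lower for 17 of 27, which the rule brings with it. Of 16 committed-stage genes 6 were higher, with Bmp4 at 74.8 and 9.89 CPM, 7.56-fold (5.84 to 9.96), Enpp6 7.41-fold (5.67 to 9.86) and Bcas1 2.72-fold higher (2.56 to 2.88). These sums rest on a minority of the cells: 918 of the 1062 had no Bmp4 UMI and 954 no Enpp6 UMI. In the 910 cells with Pdgfra alone Bmp4 stood at 5.23 CPM and Bcas1 at 221 CPM, against 9.89 and 209 in all dividing cells. The dividing cells were not split here, and 7 of them held both genes and 8 held Enpp6 alone. These values therefore do not set like cells side by side. Cdkn1c was 3.06-fold higher (2.78 to 3.38). Pdgfra stood at 1028 and 1162 CPM and Ccnd1 at 331 and 311, and none of the 20 precursor genes was called.

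Of the 10 genes most like Gpr17 across cells, 5 were on the committed-stage list, Cdkn1c was on the cell cycle list and Cnp on the myelin list. Over the 3820 P7 cells with Sox10, thinned to 2000 UMIs, the highest Pearson correlations with Gpr17 were 0.43 for Sirt2 and for Bcas1, 0.42 for the tetraspanin Cd9, 0.40 for S100a13, 0.39 for the unnamed transcript 9530059O14Rik, 0.37 for Cdkn1c, 0.36 for Bmp4, 0.35 for Enpp6, 0.34 for Fyn and 0.33 for Cnp. These describe 1 library, whose cells share its free RNA. The committed-stage list has 18 genes outside the rule, among 28879 genes counted. Gpr17 and Sox10, which set this ranking, are genes of the rule, so the list counts are a description only. Cd9 and S100a13 were 5.02-fold (4.8 to 5.26) and 3.12-fold (2.97 to 3.29) higher in the Enpp6 cells than in the Pdgfra cells, and 9530059O14Rik 30.4-fold (25.2 to 36.8).

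The rule was met by 27 of 12080 cells at P0, 0.224% (0.147% to 0.325%), and by none at E11 or E14, where the exact intervals for 0 of 5114 and 0 of 17150 cells reach 0.0721% and 0.0215%. At P0, 2 of 2452 cells met it in run 1 and 25 of 9628 in run 2, and the runs had median depths of 6059 and 10053 UMIs. The 27 cells were 6.75% (4.5% to 9.67%) of the 400 P0 cells with Sox10, against 27.8% (26.4% to 29.3%) at P7. With the rule applied at 2000 UMIs per cell (at least 1 Gpr17 UMI and none of the excluded genes), 0.356% of P0 and 12.4% of P7 cells met it. Of the P7 cells, 602 of 1107 were among the 1062 described here.

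The P0 cells had Pdgfra in 24 of 27 and Enpp6 in 1, and Pdgfra stood at 1025 CPM against 1028 at P7, a ratio of 0.998 (0.879 to 1.13). Of 11651 tested genes 471 were higher at P0 (4.04%) and 1041 lower (8.93%). The 27 P0 cells held 253557 UMIs in all, so genes near 5 CPM rest on very few UMIs there. No alternative setting was tried for this comparison of genes. Myelin genes were lower for 7 of 13 and higher for 1, Ptgds. Pllp, a tetraspan protein of myelin, stood at 39.4 CPM against 267, 6.76-fold lower (3.67 to 14.12). Gpr37l1, a receptor of maturing glia, was 11.6-fold lower (7.05 to 20.8), S100a13 4.23-fold (3.21 to 5.69), Mfsd2a 4.99-fold (3.38 to 7.73) and Neu4 4.73-fold lower (1.61 to 23). Sox9 was 3.27-fold higher at P0 (2.77 to 3.83), the BMP target Id1 6.81-fold (4.36 to 10.3), and Lef1, a Wnt pathway factor, stood at 43.4 CPM against 0.37, 117-fold higher (34.7 to 504) on 4 UMIs at P7. Bcas1 and Fyn were not called, at 410 and 615 CPM. Of other cell types, 5 of 5 tested ependymal markers and 4 of 9 astrocyte markers were lower at P0, and the blood marker Hbb-bs and the mural cell marker Pdgfrb, each the 1 gene of its list tested, were higher. Of 11 neuron markers Syt1 was higher and Snhg11 and Slc32a1 lower, and of 14 early response genes Hspa1a and Nr4a1 were lower. Their part in the result was not tested. The ages were sequenced as separate samples, so age and sample cannot be told apart.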

How the data were processed

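The deposited table holds UMI counts per gene and cell, made by the authors with Cell Ranger 3.0.2 and Seurat on the mm10 build, per the submitters' processing notes. Filters on cells, strand setting and annotation are not given in the sources used here. All 43261 cells and 28879 genes were whole numbers of at least 0, with 2956 to 49640 UMIs per P7 cell. Cells were mapped to the 4 samples by the start of their names, and runs of 1 age are the same sample.

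From these counts, UMIs were summed per group and divided by the group's total. Levels have exact Poisson intervals, shares exact Clopper-Pearson intervals, and ratios exact conditional binomial intervals, all at 95%, and these cover counting error only. A level of 0 was given 3 UMIs as its floor. Cells were thinned at random to 2000 UMIs (seed 1), and no cell of any group was shallower than that. Doublets were called with Scrublet as run by Scanpy 1.11.5. Python 3.11.15, numpy 2.4.6, scipy 1.17.1, pandas 2.3.3 and matplotlib 3.10.9 were used. The calls were also run on simulated counts with counting error only. The known folds set there were larger than the 2-fold limit and lay in genes well above the 5 CPM limit. The simulation does not cover differences near these limits, and the P0 comparison was not simulated, so nothing is read from it.

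Gene positions come from GENCODE M21, in which 576 of 579 listed and named genes matched by symbol, and 11 of them overlap another gene's exons on the same strand. Values of some listed genes are not reported here.

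The genes named are those of 31 lists (535 genes, 534 in the table), the 15 highest and 15 lowest against resting precursors and against myelin gene-rich cells, the 15 highest against other P7 cells, and the 10 most like Gpr17. Epb41l2 and Hmga2, in the closing observations, fall outside this rule and were chosen after their values were seen. The cells, lists and rules were chosen with earlier results of these data known. Alternatives tried were the Gpr17 threshold (3 or 10), the CPM added (1 or 20), no filter on low counts, means of single-cell CPM, thinning, scaling by the median ratio, leaving out doublets, cells of 5000 to 15000 UMIs, and other limits for the comparison groups.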

Additional observations from a re-analysis of the deposited data

How the results depend on the processing

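No paired analysis was possible because each age was 1 sample and runs of 1 sample are no replicates. In the comparison with resting precursors (122 higher, 201 lower), the counts were 285 and 335 at 10 or more Gpr17 UMIs, 284 and 391 with 1 CPM added, 38 and 49 with 20 CPM added, 573 and 447 after thinning (67 and 93 of them shared with the counts above), 201 and 129 among cells of 5000 to 15000 UMIs (77 and 61 shared), and 393 and 653 against precursors with 1 or more Pdgfra UMIs. Averaging single-cell CPM gave 119 and 100. A threshold of 3 Gpr17 UMIs gave 94 and 187, no filter 137 and 210, median ratio scaling 118 and 211, and leaving out doublets 137 and 263. Chosen after seeing the data were the 1097 cells with 1 to 4 Gpr17 UMIs as the comparison (36 and 25) and the cells with Pdgfra alone (69 and 172). Against the myelin gene-rich cells (2197 and 612) the counts were 910 and 396 with 20 CPM added, 3750 and 1441 after thinning, and 1350 lower among cells of 5000 to 15000 UMIs, where 8 myelin gene-rich cells remained. All alternatives for the Enpp6 against the Pdgfra cells (352 and 1027) were chosen after seeing the data: 20 CPM added gave 202 and 416, and thinning 791 and 1664, of which 273 and 714 were shared. The cause of these shifts was not tested.

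In the comparison with resting precursors the direction turned for 6 named genes that were called: log2 differences became 0.11 for Vstm2l after thinning, 0.38 for Ghrh and 0.069 for Tac2 among cells of 5000 to 15000 UMIs, 0.068 for Ccl2 and 0.26 for Sst against cells with 1 to 4 Gpr17 UMIs, and -0.46 for Epcam in cells with Pdgfra alone. Of genes not called, Hes5 (after thinning, with averaged single-cell CPM, at 10 or more Gpr17 UMIs and against cells with 1 to 4) and Cspg4 (at 10 or more) also changed sign, to values just below equality. With these, 40 further values for named genes gained or lost the call or changed sign, and 435 kept their sign and call. In the comparisons with the myelin gene-rich cells and of the Enpp6 with the Pdgfra cells, all 407 and 296 values kept both. In each comparison the genes counted were its own 15 highest and 15 lowest, with a few set genes. Some of them, such as Gpr17, Mag, Pdgfra and Enpp6, differ through the rule or the split. Keeping sign and call was therefore largely fixed by the choice of genes, and nothing is read from these counts. The sizes of the differences did change, among them that of Enpp6 with the CPM added. The share of P7 cells was 17.5% at 3 or more Gpr17 UMIs and 4.18% at 10 or more. Dividing cells were 46.7% with any of 6 genes and 24% after thinning at 10 to 19 Gpr17 UMIs, and 26.1% and 6.21% at 20 or more. Pdgfra was found in 88.7% and Enpp6 in 10.2% before thinning, and the rule thinned to 2000 UMIs gave 0.356% at P0.

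With 1 sample per age, nothing here measures variation between animals. The cells with Enpp6 alone numbered 76 and held 2 to 3 UMIs of some lower genes, so their ratios have wide intervals. The myelin gene-rich cells numbered 26 and the P0 cells 27. Detection of Pdgfra and Enpp6, which defines the subsets, depends on depth.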

Other observations

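Several genes, outside the lists except for Pmp22, a Schwann cell marker, differed widely between the Gpr17-high cells with Enpp6 alone and those with Pdgfra alone, and those named here were chosen after their values were seen. Epcam, an adhesion protein best known from epithelia, stood at 2.23 CPM in the Pdgfra cells, 85 in cells with both genes, 92.8 in cells with neither, 302 in the Enpp6 cells and 273 in the myelin gene-rich cells. Its level in the Enpp6 cells was 136-fold that in the Pdgfra cells (95% counting interval 86.2 to 226). Epb41l2, a link between membrane and cytoskeleton, stood at 49.3, 433, 302, 790 and 1315 CPM in the same order.

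Other genes ran the opposite way. Cdo1, an enzyme of cysteine breakdown, stood at 566 CPM in the Pdgfra cells, 187 in cells with both genes, 106 in cells with neither, 35.5 in the Enpp6 cells and 24.8 in the myelin gene-rich cells. Mmp15, a membrane-bound matrix protease, stood at 298, 102, 61, 18.8 and 12.4 CPM, and Pmp22, known from peripheral myelin, at 154, 60.1, 34.5, 19.9 and 8.27 CPM. Hmga2, a chromatin protein of early progenitors, stood at 44.1 CPM in the Pdgfra cells with no UMI in the Enpp6 cells, which is at least 14.06-fold lower when 3 UMIs are allowed there. The neuron and astrocyte markers moved with the same split, and their part in these differences was not tested.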
